A study of Danio rerio with 3 samples.

Results

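The miR-148 and miR-152 family is a pair of related microRNAs whose 3p strands carry the same seed, the stretch of bases 2 to 8 that pairs with target mRNAs. It was examined here in whole zebrafish larvae. Its members were chosen by name and, among rows with the same sequence, selected on abundance: every row named miR-148 or miR-152 was taken under any species prefix. This gave 7 rows and 5 distinct sequences, of 1202 sequences in the series. Only 4 of the 5 reached a mean of 10 normalised reads, the minimum for comparing libraries, as did 471 sequences in all.

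The larvae were F1 wild-type fish of the AB strain, collected as whole bodies at 7 days after fertilisation. The 3 groups differed in what the F0 parents had received from 6 hours after fertilisation, which was 0, 6.25 or 12.5 mg/L DKA for 90 days. DKA is short for β-diketone antibiotics, given as an equal-weight mixture of ofloxacin (spelled ofluoxacin in the labels), ciprofloxacin, enrofloxacin, doxycycline, chlortetracycline and oxytetracycline. The larvae of these groups are called control, low-dose and high-dose larvae, after their parents' dose. Each group had 1 library. Over the 1202 sequences the counts summed to 4534557 for control, 5099264 for low-dose and 6041242 for high-dose larvae. These sums are the library totals used below, and they are not the full sequencing depth. The sources used here do not give the number of larvae in a library. Differences below therefore describe these libraries, have no replicate check and carry no test. Their intervals are 95% exact intervals that cover the counting error of reads only, and no spread between libraries. PCR copies of a molecule are counted as separate reads, which the intervals do not allow for. In whole larvae, fewer cells of a type and less RNA per cell cannot be told apart.

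As background, a microRNA guides an Argonaute protein to mRNAs that match its seed, which lowers their translation and stability. In mammals the shared seed of miR-148 and miR-152 is known for targeting the DNA methyltransferases DNMT1 and DNMT3B. Mammalian miR-148a is abundant in liver and acts there on the LDL receptor and the cholesterol exporter ABCA1. Mammalian miR-152 lies in an intron of COPZ2, a subunit gene of the COPI vesicle coat. In zebrafish, by the RefSeq annotation of assembly GRCz12tu, dre-mir-152 lies within the span of copz2, next to nfe2l1a, and dre-mir-148 lies within the span of hnrnpa3, next to nfe2l2a. The nfe2l genes encode stress-responsive transcription factors. No coordinates are given, because the submitters' processing notes name another build, Zv9.

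The sequences below carry the findings and are printed as DNA letters, 5′ to 3′, from the deposited table. Capitals mark bases 2 to 8, and in the third line also base 18.
miR-152: tCAGTGCAtgacagaactttgt
miR-148: tCAGTGCAttacagaactttgt
miR-152 T18G form: tCAGTGCAtgacagaacGttgt
5p arm: aAGTTCTGtgatacactcagact

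Base numbers start from 1 at the first base of a read. The 3p reads of miR-148 and miR-152 were both 22 nt long and shared 21 bases. Their only difference was T10G, with the base of miR-148 first. The miR-152 read carries the authors' mark G22T, a T at its last base where the annotated form has G, and no miR-152 form without a mark was analysed here. The T18G form has a second mark and differed from the main miR-152 read by T18G alone. The mark leaves the seed as it is.

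The 5p read, 23 nt long, has another seed and is the strand left when the 3p strand is loaded. It was listed under miR-148b-5p of human and miR-148a-5p of salmon, each with a pair of substitutions (T10G and G21A in the human name). The table does not say whether it comes from the miR-148 or the miR-152 hairpin. The fifth member is a miR-148 read with an uncalled first base and T22A. It had counts of 0.363 in control larvae, 0.679 at the low dose and 3.38 at the high dose. The control and low-dose values lie below the floor of 3 counts and the high-dose value just above it, so no ratio is given for it. Its mean of 1.17 normalised reads lay outside the minimum of 10, and the T18G form, at a mean of 63.1, was the member nearest inside it.

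miR-152 was the most abundant member in every library. It had 6331 normalised reads in control larvae, 6570 at the low dose and 4589 at the high dose, and ranked 84th, 85th and 97th of 1202 sequences in that dose order. miR-148 followed with 4981 in control larvae, 4855 at the low dose and 3559 at the high dose. The high-dose library was thus the lowest for both 3p strands, while the other pair of libraries lay close together. Neighbours in this order differed beyond counting error, as the ratio of miR-152 to miR-148 was 1.27 (1.22 to 1.32) in control larvae, 1.35 (1.30 to 1.41) at the low dose and 1.29 (1.24 to 1.34) at the high dose.

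The 5p read had 1079 normalised reads in control larvae, 1100 at the low dose and 755 at the high dose. Its order of libraries was that of miR-152, but its control and low-dose values lay within counting error of each other. The T18G form of miR-152 had 4.81 in control larvae, 5.11 at the low dose and 179 at the high dose. It was highest at the high dose, where the other compared members were lowest, and its counts behind these values were 4.08, 5 and 253 in that order.

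**Figure D1:**
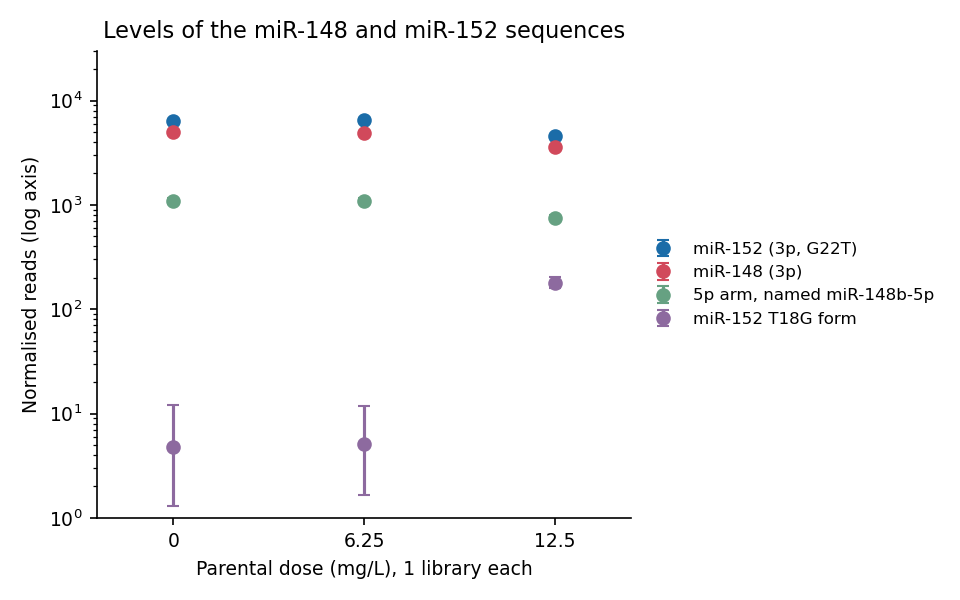
Normalised reads (log axis) of 4 family sequences in the libraries of parents at 0 (control), 6.25 (low dose) and 12.5 mg/L (high dose). Points are single libraries and bars 95% exact Poisson intervals of the counts. The miR-152, miR-148 and 5p points are lowest at the high dose, where the T18G form stands at 179, against 4.81 in control larvae.

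As a share of the counts of all 1202 sequences, the members together took 0.232% (0.227 to 0.236) in control larvae, 0.241% (0.236 to 0.245) at the low dose and 0.212% (0.208 to 0.216) at the high dose. They are shares of reads and make no use of the deposited factors. The high-dose share was the lowest of the 3, by less than the normalised values give.

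The first question is how low-dose larvae (6.25 mg/L) compare with control larvae (0 mg/L). The ratios of the family lay close to 1 in this pair of libraries. The ratio was 1.04 for miR-152 (1.00 to 1.08), 0.975 for miR-148 (0.935 to 1.02) and 1.02 for the 5p read (0.932 to 1.11). The T18G form had a ratio of 1.06, with an interval of 0.233 to 5.46 that reflects its few counts.

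None of the 4 compared members reached 1.5-fold in either direction at the low dose. Over all 471 sequences, 9.13% were 1.5-fold or more higher and 7.43% lower by that size, and at 2-fold or more these were 2.55% higher and 2.55% lower. The members' median log2 ratio was 0.04, beside a median of 0.11 over all sequences. At these shares, 0 of 4 members is near the background.

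High-dose larvae (12.5 mg/L) were compared next with control larvae. The 3 abundant members were lower by similar amounts. miR-152 was 1.38-fold lower (ratio 0.725, 0.699 to 0.752), miR-148 was 1.40-fold lower (0.714, 0.686 to 0.745) and the 5p read was 1.43-fold lower (0.700, 0.640 to 0.765). Their log2 ratios of -0.46, -0.48 and -0.51 placed them 74th, 70th and 66th from the lowest of 471, so many other sequences were lower still. Their intervals overlapped one another, and none of these members reached 1.5-fold.

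The T18G form of miR-152 was 37.3-fold higher at the high dose (14.7 to 141). Ranked by log2 ratio with a pseudocount of 1, at 4.96 it was the highest of all 471 sequences, and of all 1202 when no minimum was set. The next were the G3T form of miR-1a-3p, the muscle miRNA, at 4.35 and the T10C form of miR-203b-3p, known from skin, at 4.32. Both of these also carry a substitution mark. The T18G form is among the 471 only through the high-dose library, so its rank there is a description. Without the pseudocount, sequences absent from the control library would have no finite ratio, so the rank among 1202 depends on it.

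Of the 4 compared members 1 was at least 1.5-fold and 2-fold higher and 0 were lower by either measure. Over all sequences 22.7% were 1.5-fold or more higher and 11.9% lower by that size, and at 2-fold or more these were 10.8% higher and 4.25% lower. The T18G form passed the minimum through the high-dose library, since its mean over the other pair of libraries was 4.96 normalised reads. A sequence that passes that way had to differ, so the count of 1 in 4 is not a result about the family. The members' median log2 ratio was -0.47, against 0.08 over all sequences.

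**Figure D2:**
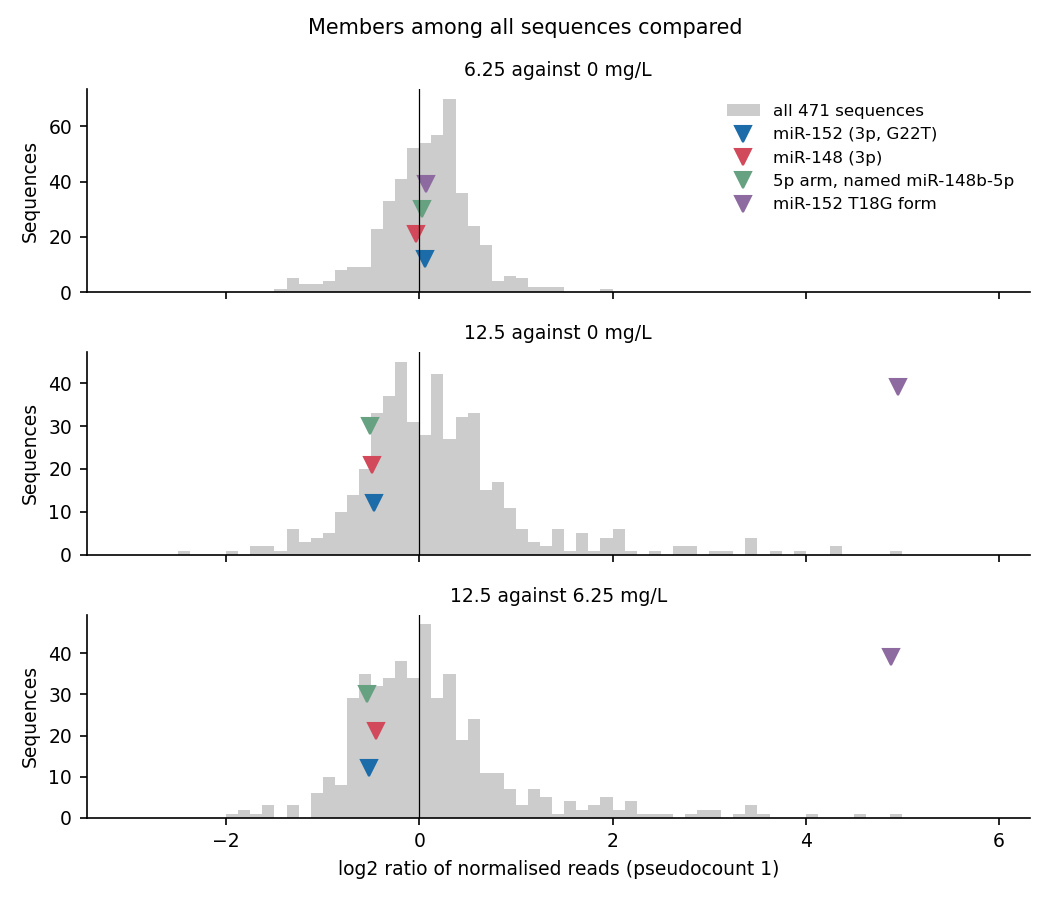
Histograms of the log2 ratio of normalised reads (pseudocount 1) of all 471 sequences in each comparison, with the number of sequences on the vertical axis. Triangles mark the members at their log2 ratio, and their height has no meaning. In high-dose against control larvae, miR-152, miR-148 and the 5p read lie between -0.46 and -0.51 and the T18G form at 4.96, the far right of the distribution.

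The size of the difference of the abundant members depends on how the libraries are scaled. With counts scaled to equal library totals, the ratio of high-dose to control larvae was 0.905 for miR-152 (0.873 to 0.939), 0.892 for miR-148 (0.857 to 0.930) and 0.874 for the 5p read (0.799 to 0.955). With the median of ratios it was 0.668, 0.659 and 0.645 in the same order. All of these are below 1. Equal totals raised the median log2 ratio of all 471 sequences to 0.40, and the median of ratios set it at -0.03. A scaling factor shifts every sequence by the same amount, so apart from the pseudocount a member's distance from that median is the same under each scaling by construction. With the deposited factors this distance was -0.55 for miR-152 and -0.57 for miR-148.

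**Figure D3:**
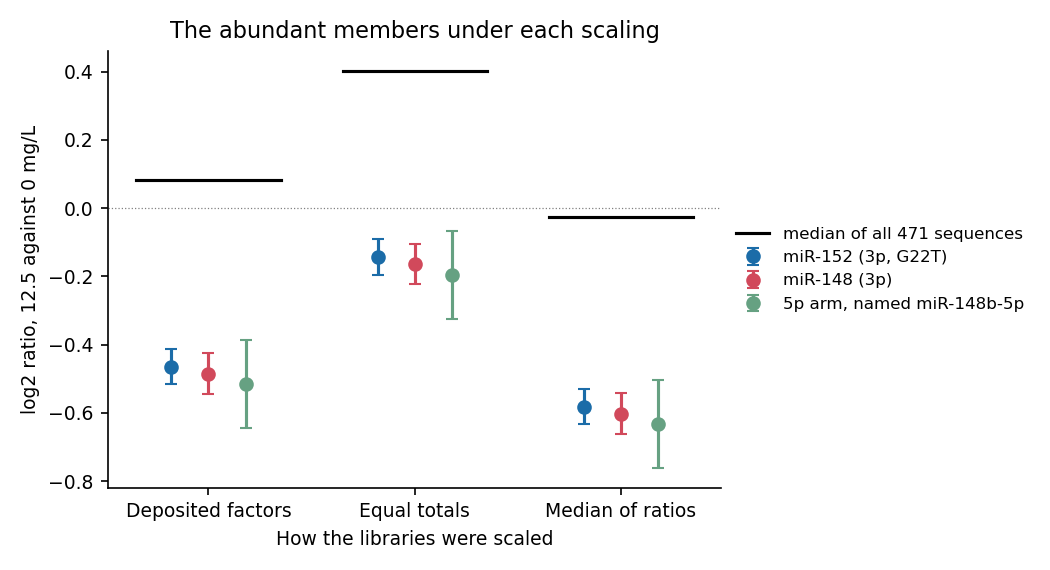
Log2 of the ratio of scaled counts, high-dose against control larvae, for miR-152, miR-148 and the 5p read under 3 ways of scaling the libraries. Bars are 95% exact intervals of counting error and black lines the median of all 471 sequences. The members stay below 0 and below the black line each time, but lie nearer to 0 with equal totals (miR-152 at -0.14) than with the deposited factors (-0.46).

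High-dose larvae were last compared with low-dose larvae. This shares the high-dose library with the comparison before it, as both comparisons with control share that library, so the values are not independent. miR-152 was 1.43-fold lower (ratio 0.698, 0.675 to 0.723), miR-148 was 1.36-fold lower (0.733, 0.704 to 0.763) and the 5p read was 1.46-fold lower (0.687, 0.630 to 0.748). The T18G form was 35.1-fold higher (14.9 to 109), again with the highest log2 ratio of 471 sequences. It is among them only through the high-dose library, so this rank too is a description.

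In this comparison too 1 of 4 members, the T18G form, was at least 1.5-fold and 2-fold higher and 0 were lower. As before, that form passed the minimum through the high-dose library, so the count is not a result about the family. Over all sequences 19.3% were 1.5-fold or more higher and 14.6% lower by that size, and at 2-fold or more these were 11.0% higher and 3.40% lower. The members' median was -0.48, beside -0.0021 over all sequences.

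Shares within a library need no scaling between libraries. Of the miR-152 and miR-148 reads as a pair, miR-152 made up 56.0% (55.0 to 57.0) in control larvae, 57.5% (56.6 to 58.4) at the low dose and 56.3% (55.4 to 57.2) at the high dose. The ratio of miR-152 to miR-148 at the low dose was 1.06 times that in control larvae (1.01 to 1.13, exact conditional interval), which lies just outside counting error. At the high dose it was 1.01 times that in control larvae (0.960 to 1.07) and 0.953 times that at the low dose (0.904 to 1.005), and both of these intervals include 1.

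The 5p read, set against all 5p and 3p reads of the family, made up 8.71% (8.18 to 9.26) in control larvae, 8.78% (8.28 to 9.29) at the low dose and 8.31% (7.84 to 8.803) at the high dose. The 3p strand thus gave most of the family's reads in all 3 libraries. The ratio of 5p to 3p reads was 1.01 times that in control larvae at the low dose (0.918 to 1.11) and 0.950 times at the high dose (0.866 to 1.04). At the high dose it was 0.943 times that at the low dose (0.862 to 1.03), so that all 3 intervals include 1. The 3p reads here include the T18G form, with 4.08, 5 and 253 counts in dose order, which lowers the high-dose values.

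The T18G form behaved otherwise. Its share of the miR-152 reads (T18G and main form together) was 0.0759% (0.0203 to 0.191) in control larvae, 0.0777% (0.0252 to 0.181) at the low dose and 3.76% (3.32 to 4.24) at the high dose. The share at the high dose was 49.6 times that in control larvae and 48.4 times that at the low dose. The interval at the high dose does not meet the other pair, which are nearly the same. These intervals cover counting error in single libraries. The form passed the minimum only through the high-dose library, so this difference too is a description.

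**Figure D4:**
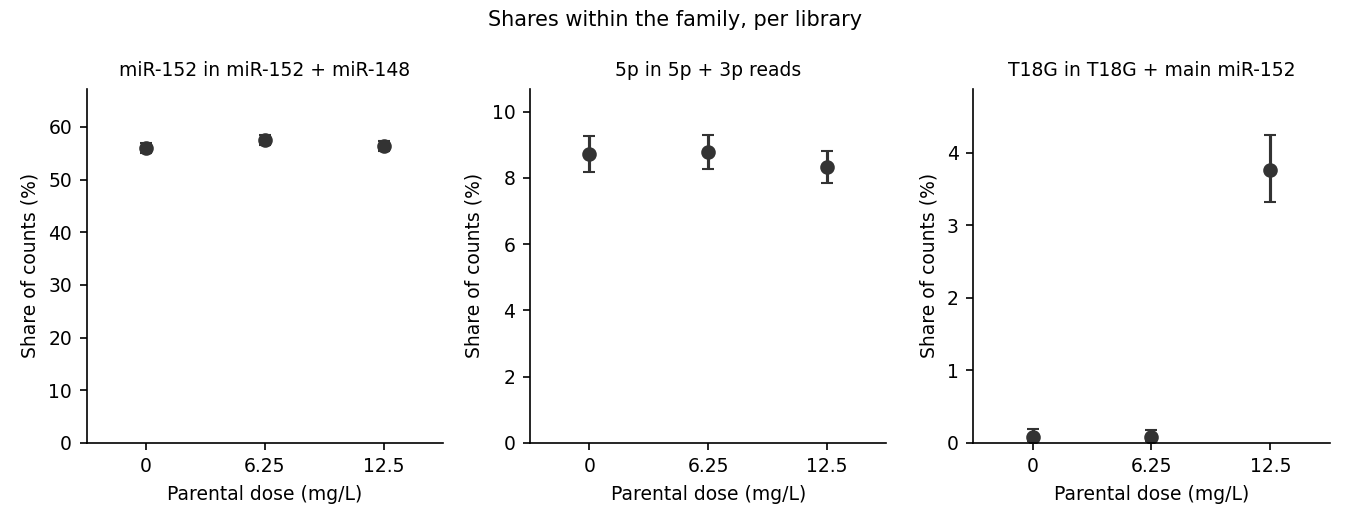
Shares of counts (%) in the libraries of parents at 0 (control), 6.25 (low dose) and 12.5 mg/L (high dose), for miR-152 among miR-152 and miR-148, the 5p read among all family reads, and T18G among miR-152 reads. Points are single libraries and bars 95% exact binomial intervals. The first panel spans 56.0% to 57.5% and the second 8.31% to 8.78%, while the T18G share is 3.76% at the high dose and below 0.08% elsewhere.

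To set the T18G form beside others of its kind, the table was searched for sequences of at least 10 mean normalised reads that differ at 1 base from another of the same length that is at least 10 times as abundant. This search was added after the value of the T18G form was seen. It found 15 pairs, the T18G and main forms of miR-152 among them. The share of the scarcer form was at least 2-fold higher at the high dose than in control larvae in 10 of them (66.7%), with a median of 2.09 times. In low-dose against control larvae the median was 1.06 times, with a range of 0.535 to 2.90. The miR-152 pair had the highest value of the 15 at the high dose and the 9th highest at the low dose. The next at the high dose was a form of miR-430b-5p with an uncalled base, at 31.2 times, and the third a G22T form of miR-9-5p at 3.99 times. The minimum itself bears on this count and this rank. Of the 15 scarcer forms, 7 reached it only through the high-dose library, the T18G form among them, and all 7 had a share at least 2-fold higher there. Of the 8 that reached a mean of 10 in the other pair of libraries, 3 did, with a range of 0.757 to 3.99 times. The count of 10 and the rank of T18G are therefore descriptions of the forms that the minimum let in.

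**Figure D5:**
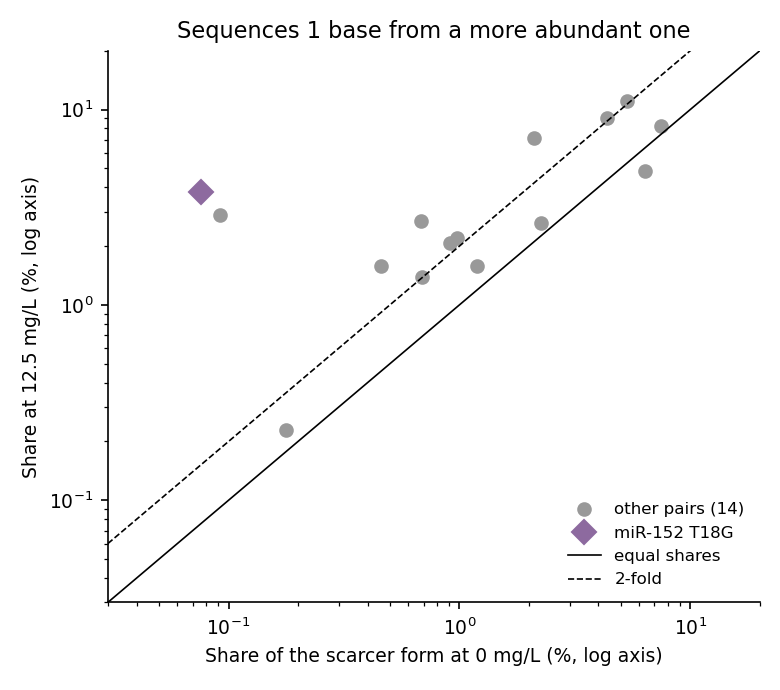
Share of the scarcer form (%) in 15 pairs of sequences that differ at 1 base, at the high dose (vertical, log axis) against control larvae (horizontal, log axis). Each point is a pair, the solid line marks equal shares and the dashed line a 2-fold higher share at the high dose. The miR-152 T18G form stands at 3.76% at the high dose and 0.0759% in control larvae, farthest above the solid line.

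All sequences with a substitution mark were counted in the same way, the T18G form, the main miR-152 read and the 5p read included. Of 124 above the minimum, 35, the T18G form among them, were at least 2-fold higher at the high dose than in control larvae (28.2%), beside 16 of 347 without a mark (4.61%) and 10.8% of all 471. At the low dose 5 of the 124 were. With the minimum taken from the control and low-dose libraries instead, 18 of 105 marked sequences (17.1%) and 13 of 351 without a mark (3.70%) were at least 2-fold higher at the high dose. Under both minimums the share was higher among marked sequences, and most marked sequences did not reach that size. Of 13 with a T-to-G mark, 5 were at least 2-fold higher at the high dose under the first minimum (38.5%), with log2 ratios from -0.98 to 4.96 and a median of 0.40. The T18G form is 1 of these 5 and holds the highest value. Under the second minimum, which it does not reach, 2 of 10 were (20%). Both high-dose comparisons of the T18G form rest on the single high-dose library. The part of that library's other substituted reads in the T18G result was not tested.

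The seed CAGTGCA stood at bases 2 to 8 in 5 of the 1202 sequences. Of these, 4 are the 3p members. The fifth is a candidate sequence that the authors gave no miRNA name, tCAGTGCAgtggttcagctgta, shown because it has the seed and little else of the family. It had counts of 5.50 in control larvae, 18 at the low dose and 5 at the high dose, so nearly all reads with this seed were miR-152 and miR-148. The same letters stood 1 base earlier, at bases 1 to 7, in 5 sequences of the miR-130, miR-301 and miR-721 names. The most abundant of them was miR-301a, read as CAGTGCAatagtattgtcaaagcgt with bases 1 to 7 in capitals. It had 29160 normalised reads in control larvae, 18880 at the low dose and 25270 at the high dose, and so was lowest at the low dose. With the deposited factors miR-152 was highest there, but with the median of ratios it was highest in control larvae.

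The miRNAs with the pattern most like that of miR-152 were looked for among 189 zebrafish-named sequences without a substitution and with a mean of at least 100 normalised reads. Likeness was the distance between the pairs of log2 ratios (low dose and high dose, each against control), which rests on 3 libraries. The nearest was miR-27a-5p, 2 nt shorter at its 3′ end, with log2 ratios of 0.05 and -0.43 in that dose order and a distance of 0.036. miR-125b-2-3p, 1 nt longer at its 5′ end, had 0.10 and -0.47 (distance 0.047). miR-219-5p, 1 nt longer at its 3′ end and known from myelin-forming glia, had 0.06 and -0.41 (distance 0.053). Without the added base, miR-219-5p had 0.39 and -0.50, so the likeness is that of the longer form. The 5p read of the family lay at a distance of 0.057, with 4 of the 189 nearer, and miR-148 at 0.093, with 7 nearer. Both counts include a pair of entries of the longer miR-219-5p form, which have identical log2 ratios.

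In mammals several other miRNAs act on cholesterol and lipid handling, and 11 of their families were set beside miR-148 and miR-152: miR-27, miR-33, miR-96, miR-103, miR-107, miR-122, miR-128, miR-130, miR-185, miR-223 and miR-301. Of these, 9 families had a sequence above the minimum, with 29 sequences in all. They were taken by family number, so both arms of a hairpin were counted. Opposite arms such as miR-27a-5p and miR-33b-3p have another seed, and the counts and medians below mix the arms. In low-dose against control larvae, 2 of the 29 were at least 1.5-fold higher (6.90%, against 9.13% of all sequences) and 2 were lower by that size (6.90%, against 7.43%), with a median log2 ratio of 0.05 beside 0.11 over all sequences. In high-dose against control larvae, 2 were at least 1.5-fold higher (6.90%, against 22.7%) and 4 were lower by that size (13.8%, against 11.9%), with a median of -0.10 beside 0.08. This last median was 0.21 with equal totals and -0.21 with the median of ratios, so its sign depends on the scaling. In high-dose against low-dose larvae, 1 was at least 1.5-fold higher (3.45%, against 19.3%) and 4 were lower by that size (13.8%, against 14.6%), with a median of -0.10 beside -0.0021. The shares of lower sequences lay near those of all sequences. None of the 29 reached 2-fold in any of the 3 comparisons, which 2.55% to 11.0% of all sequences did in a given direction.

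The most abundant sequence of each of these families did not share an order of libraries. miR-103, which acts on insulin sensitivity in mice, had 25692 normalised reads in control larvae, 24203 at the low dose and 15444 at the high dose. The related miR-107b had 3248, 2769 and 2372 in dose order. miR-122, the main miRNA of liver, had 18653, 24393 and 12901. For a substituted form of miR-33b-3p, the passenger strand of a cholesterol-regulating miRNA, the values were 3520, 4143 and 2717. With the deposited factors these 4 were lowest at the high dose, as the abundant members of the miR-148 and miR-152 family were. With equal totals miR-107b was instead lowest at the low dose, with a log2 ratio of high-dose to low-dose larvae of 0.06. Less abundant sequences of the miR-33 and miR-122 families went the other way in high-dose against control larvae. With the deposited factors their log2 ratios were 0.30 for miR-33a, 0.65 for a longer form of miR-122 and 0.29 for miR-122-2-3p. miR-128-3p, abundant in brain, had 43037, 66764 and 69014 in dose order, a substituted form of miR-130a 13756, 17032 and 16969, miR-27b-3p 18275, 22430 and 21158, and miR-96-5p of sensory cells 3821, 3410 and 4650. For none of these last 4 was the high-dose library the lowest under any of the 3 scalings.

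In the authors' deposited tables, Fisher's exact test compared the reads of pairs of libraries, not the conditions. By that exact test, for high-dose against control larvae these tables give p = 6.28e-07 for miR-152, 4.28e-07 for miR-148, 0.00554 for the 5p read and 6.62e-56 for the T18G form. For low-dose against control larvae, the authors' deposited table gives p = 5.65e-05 for miR-152 with a fold of 1.04, and 0.687 for miR-148 with a fold of 0.975. No source used here says how the libraries were scaled for those p-values, so they should not be read as tests of the deposited folds. With equal totals the miR-152 ratio at the low dose was 1.07 (1.03 to 1.11), an interval that lies farther above 1 than with the deposited factors.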

How the data were processed

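Small RNA libraries were made from total RNA with the Illumina TruSeq kit, per the labels' protocols. The submitters' processing notes name build Zv9. The sources used here name no aligner, miRNA release or counting rule. As deposited by the authors, the raw columns hold estimated counts (expected counts) per sequence, of which 74.7% are whole (tolerance 1e-09). The normalised signal, as deposited by the authors, is the count times 1 factor per library (1.18 at 0 mg/L, 1.02 at 6.25 mg/L, 0.709 at 12.5 mg/L). The authors also deposited a ratio (fold), its log2 and p-values for pairs of libraries, 1 table a pair. Each table has 1 emptied line.

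Rows that repeat a sequence were kept once, under the most abundant name. Ratios come from deposited normalised values, and log2 ratios use a pseudocount of 1, which understates differences of scarce sequences. Exact (Clopper-Pearson) intervals at 95% and conditional intervals of ratios between libraries use rounded counts. With 1 library per group no test was made, and sizes of 1.5-fold and 2-fold were counted. Interval code was tested on simulated data. Python 3.11.15, pandas 2.3.3 and SciPy 1.17.1 were used. Named were all members, the 3 sequences nearest in pattern to the most abundant member, the most abundant sequence of each lipid family and other sequences with the seed. Further names, such as forms with high ratios, were picked with their values in view. Members and lists were chosen with earlier results of these data known. Alternatives were pseudocounts of 0.5 and 10, equal totals, the median of ratios, no minimum, members without a substitution, and zebrafish names only. A minimum taken from the 0 and 6.25 mg/L libraries was added after the data were seen.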

Additional observations from a re-analysis of the deposited data

How the results depend on the processing

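No paired analysis was possible because each group holds 1 library, and for the same reason no replicate could be left out. A pseudocount of 0.5 moved none of the values recomputed beyond counting error. A pseudocount of 10 gave the T18G form 3.68 at 12.5 against 0 mg/L and 3.65 against 6.25 mg/L.

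With equal totals, the log2 ratios of 12.5 against 0 mg/L were -0.14 for miR-152, -0.16 for miR-148, -0.19 for the 5p read, -0.12 for the summed 3p arm and -0.15 for the members' median. Against 6.25 mg/L they were -0.24, -0.17, -0.26, -0.17 and -0.20 in the same order. The summed 3p arm includes the T18G form. With the median of ratios, the values at 12.5 against 0 mg/L were -0.58 for miR-152, -0.60 for miR-148, -0.56 for the summed 3p arm and -0.59 for the median. At 6.25 against 0 mg/L that scaling gave -0.028, -0.12, -0.067 and -0.041 in the same order, and -0.055 for the 5p read. There miR-148 was -0.037 with the deposited factors and 0.0011 with equal totals. The signs of miR-152, miR-148, the 5p read, the 3p arm and the median are thus not settled in that comparison. These shifts follow from the factors alone. With the median of ratios, 2 of the 4 members, miR-148 and the 5p read, were at least 1.5-fold lower at 12.5 against 0 mg/L. The share of all sequences past that size is not given under this scaling, so the count is not a result about the family.

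With no minimum, 2 of 5 members were at least 2-fold higher at 12.5 mg/L than in either other library, the second being the miR-148 read with an uncalled base. Over all 1202 sequences, 14.6% were at least 2-fold higher against 0 mg/L and 13.0% against 6.25 mg/L. That miR-148 read had counts of 0.363, 0.679 and 3.38 in dose order, so its place in this count is not a result about it. Without substituted members only miR-148 is left, so no count of members is given. It was lower at 12.5 mg/L than in either other library, and the median at 6.25 against 0 mg/L was its own value of -0.037. With the minimum taken from the 0 and 6.25 mg/L libraries, a choice made after the data were seen, the T18G form drops out. Then 0 of 3 members were at least 2-fold higher at 12.5 mg/L than in either other library. Over all 456 sequences under that minimum, 6.80% were at least 2-fold higher against 0 mg/L and 7.02% against 6.25 mg/L. Zebrafish names only moved no count or median by more than counting error. The 5p share had only marked forms and no zebrafish-named form to draw on, so neither the share among unmarked forms nor that among zebrafish names could be computed, and each unmarked arm had at most 1 length, so shares by 3′ end could not either. Depth limits the T18G form at 0 and 6.25 mg/L, where it rests on 4.08 and 5 counts.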
